A study of Mus musculus with 12 samples.

Results

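The nuclear genes that encode subunits of the oxidative phosphorylation machinery were examined in colon RNA of mice lacking the L-amino acid oxidase LAO1, the L-amino acid oxidase IL4i1, or both. Members were chosen by gene symbol alone (the Nduf A, B, C, S and V series, Sdha to Sdhd, and symbols starting with Uqcr, Cox 4 to 8 or Atp5), which gave 84 of the 19505 genes named on the array, each with 1 probe. By complex they comprised 35 genes of complex I, 4 of complex II, 8 of complex III, 20 of complex IV and 17 of complex V, with Ndufa4 and Ndufa4l2 counted under complex IV. Tissue came from healthy male mice aged 12 to 16 weeks that were wild type, LAO1 knockout, IL4i1 knockout or double knockout, each genotype with 3 Affymetrix arrays (12 in all). The labels give 4 mice chosen per genotype and do not say whether each array is 1 mouse, so the spread behind each p-value is that among arrays and may be technical. Values are log2 expression as deposited, and a difference of 1 is a doubling. Each comparison was tested with limma over all 22206 probes, and a call needed a Benjamini-Hochberg adjusted p under 0.05. No member passed that threshold in any comparison. In the IL4i1 knockout, 9 members stood lower than in wild type at an unadjusted p under 0.05 (10.7%, against 4.34% of all probes and 6.65% of the brighter probes), among them Sdhc, Atp5g3, Ndufc1, Ndufc2 and Uqcr10. For 80 of the 84 members (95.2%, against 93.6% of all probes) the arrays of at least 1 genotype spanned more than the largest difference between genotype means.

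Oxidative phosphorylation takes place in the inner mitochondrial membrane. Complex I (NADH dehydrogenase) and complex II (succinate dehydrogenase) pass electrons to ubiquinone, complex III (the cytochrome bc1 complex) passes them on to cytochrome c, and complex IV (cytochrome c oxidase) passes them to oxygen. Complexes I, III and IV pump protons, and complex V (ATP synthase) uses the returning protons to make ATP. In the colon, absorptive epithelial cells draw much of their energy from the mitochondrial oxidation of butyrate made by gut bacteria. A few core subunits are encoded in mitochondrial DNA. Those were not analysed here.

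Nuclear respiratory chain genes share binding motifs for a few transcription factors in their promoters, among them NRF1, ETS factors such as GABPA, YY1 and the estrogen-related receptors (ERR). Promoter windows of 300 bases, from 250 before to 50 after the transcript start, were taken from RefSeq (build GRCm38.p6) for the 69 members that had one. An NRF1 motif (GCGCANGCG, on either strand) stood in 20 of them (29%), against 7.03% of all 27025 genes with a window. An ETS motif (CCGGAAG) stood in 17 (24.6%, all genes 9.93%), a YY1 motif (AAGATGGC) in 10 (14.5%, all genes 3.19%) and an ERR motif (TCAAGGTCA) in 2, Atp5g3 and Sdhd (2.9%, all genes 0.466%). At least 1 of the 4 motifs stood in 39 members (56.5%, all genes 18.2%). By complex, counting genes with a window, the NRF1 motif was in 8 of 32 in complex I, 2 of 3 in II and 2 of 5 in III. It was in 1 of 14 in complex IV and 7 of 15 in V. The YY1 motif was in 7 genes of complex I and 3 of complex V, and in 0 of the 3, 5 and 14 genes of complexes II, III and IV. Counts this small do not show a difference between complexes. A match describes letters in a window and is not a measured site. The 4 windows below, of genes described in the results, show each kind of motif, with NRF1 in both Atp5g3 and Atp5c1. They lie at chr2:73911277-73911576 (Atp5g3), chr3:51408906-51409205 (Ndufc1), chr4:116075021-116075320 (Uqcrh) and chr2:10080383-10080682 (Atp5c1), all on the minus strand, and are written 5′ to 3′ with the motifs in capitals. In Atp5g3 the ERR motif begins 52 bases before the start and the NRF1 motif at base 14 after it. The YY1 motif of Ndufc1 begins at base 23 after the start, the ETS motif of Uqcrh 10 bases before it and the NRF1 motif of Atp5c1 17 bases before it.
Atp5g3: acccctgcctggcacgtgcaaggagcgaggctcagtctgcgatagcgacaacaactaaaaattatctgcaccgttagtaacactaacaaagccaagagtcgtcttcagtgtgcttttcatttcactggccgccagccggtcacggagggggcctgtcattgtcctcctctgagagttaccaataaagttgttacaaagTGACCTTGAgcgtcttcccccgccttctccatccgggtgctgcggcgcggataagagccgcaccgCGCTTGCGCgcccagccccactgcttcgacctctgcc
Ndufc1: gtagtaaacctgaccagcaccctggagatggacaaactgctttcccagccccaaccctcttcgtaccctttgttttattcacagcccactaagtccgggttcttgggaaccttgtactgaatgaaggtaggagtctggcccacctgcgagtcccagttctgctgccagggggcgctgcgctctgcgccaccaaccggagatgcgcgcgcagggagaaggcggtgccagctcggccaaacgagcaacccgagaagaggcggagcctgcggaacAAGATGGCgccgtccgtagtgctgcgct
Uqcrh: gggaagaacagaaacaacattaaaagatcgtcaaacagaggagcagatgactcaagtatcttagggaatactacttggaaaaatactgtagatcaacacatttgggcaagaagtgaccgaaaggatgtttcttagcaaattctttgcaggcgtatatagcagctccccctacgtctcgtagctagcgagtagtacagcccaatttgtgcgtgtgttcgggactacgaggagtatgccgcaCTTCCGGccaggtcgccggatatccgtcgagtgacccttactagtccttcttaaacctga
Atp5c1: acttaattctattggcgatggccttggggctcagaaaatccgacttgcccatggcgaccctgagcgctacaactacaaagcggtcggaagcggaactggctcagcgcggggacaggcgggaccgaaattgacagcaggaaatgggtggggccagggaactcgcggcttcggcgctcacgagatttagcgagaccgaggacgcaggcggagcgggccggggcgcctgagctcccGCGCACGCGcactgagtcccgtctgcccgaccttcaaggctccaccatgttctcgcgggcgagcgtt

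Before the comparisons, the libraries themselves were examined. The array held no probe named Il4i1, and the Lao1 probe was dim on all 12 arrays (2.64 to 3.56 on the log2 scale), with a wild type mean of 3 ± 0.32 and an LAO1 knockout mean of 3.01 ± 0.29 (SD, n = 3), so neither checks the labels. Double knockout replicate 2 had a mean of 17.21 over 7 pancreatic acinar genes, against 4.03 to 4.87 on the other 11 arrays. Smooth muscle markers (10 genes) averaged 14.54 on IL4i1 knockout replicate 2 and 12.86 to 14.12 elsewhere. Colon identity genes were well expressed, with means of 13.03 to 14.72 over 11 absorptive colonocyte markers. Across all probes the array medians lay between 5.42 and 5.49.

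The replicate arrays differed in their oxidative phosphorylation genes together. LAO1 knockout replicate 1 was the lowest of its genotype for 72 of the 84 members (85.7%, against 34% of all probes), and double knockout replicate 2 for 59 (70.2%, against 33.6%). IL4i1 knockout replicate 2 was the highest of its genotype for 63 members (75%, against 35.6%), and replicate 3 the lowest for 39 (46.4%, against 28.8%). Within wild type, replicate 2 was the lowest for 37 members (44%, against 29%) and replicate 3 the highest for 43 (51.2%, against 38.1%). The median over all 84 members ranged from 10.45 on IL4i1 knockout replicate 3 to 11.1 on LAO1 knockout replicate 2. By genotype this median spanned 10.88 to 11.05 in wild type, 10.56 to 11.1 with LAO1 deleted, 10.45 to 11.01 with IL4i1 deleted and 10.71 to 11.07 with both deleted. Double knockout replicate 2 is the array with the acinar signal and IL4i1 knockout replicate 2 the array with the highest smooth muscle markers. The latter also had the highest absorptive colonocyte mean of all arrays (14.72). Its endothelial (5.71), macrophage and monocyte (5.86) and B and plasma cell (6.4) means were the lowest. Over all probes it gave the highest value of all arrays for 14.9% and the lowest for 15%. The part of any of this in the shifts was not tested. For many of the members described here, values without these arrays are given beside those with them. IL4i1 knockout replicate 3, with the lowest member median, was left out for the counts and medians. Among single members, a value without it is given for Ndufc2 only.

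**Figure D1:**
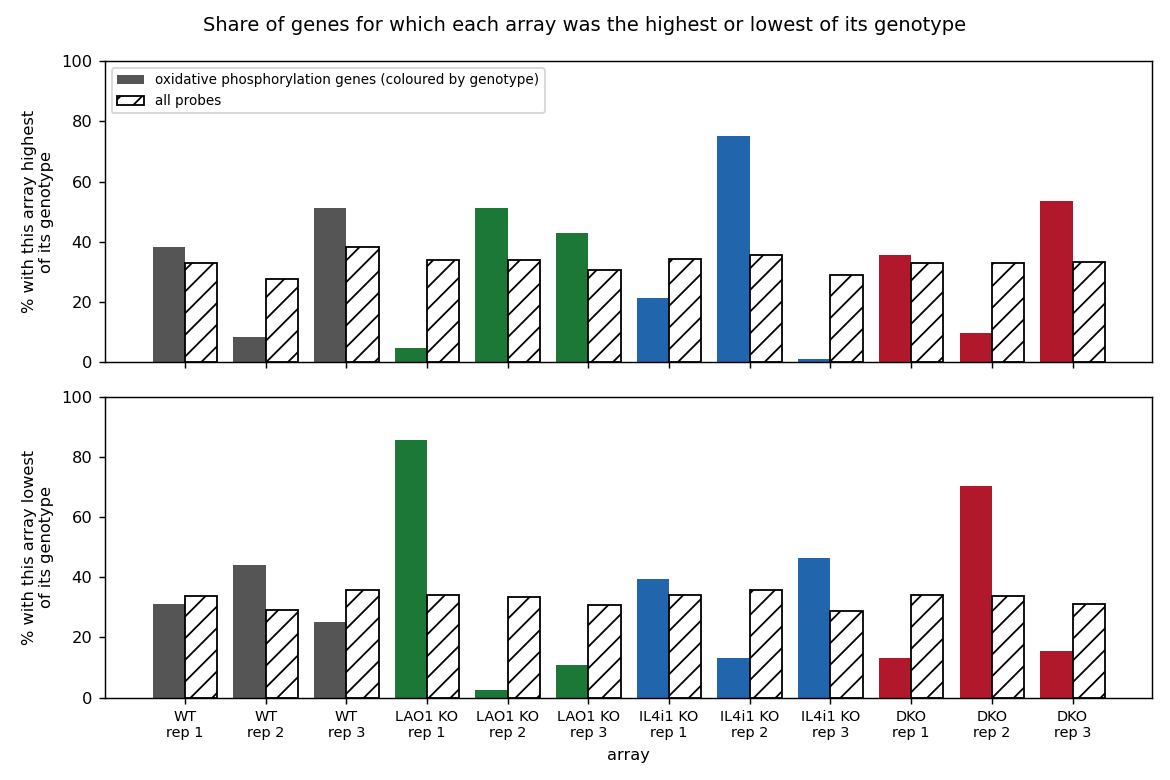
Percent of the 84 oxidative phosphorylation genes (coloured bars) and of all probes (hatched bars) for which each of the 12 arrays gave the highest (top) or lowest (bottom) value of its genotype. LAO1 knockout replicate 1 (85.7% lowest), double knockout replicate 2 (70.2% lowest) and IL4i1 knockout replicate 2 (75% highest) stand far from the hatched bars beside them.

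The members did not all follow their array. On IL4i1 knockout replicate 2, Cox4i1, the common isoform of a regulatory complex IV subunit, stood 1.98 above the mean of the other IL4i1 knockout arrays, Ndufa4 1.7 above it and Uqcrb, a ubiquinone-binding subunit of complex III, 1.6 above it. On the same array Sdha, the flavoprotein of succinate dehydrogenase, stood 0.92 below that mean (a difference of -0.92), Sdhc -0.64, Ndufb6 -0.6 and the complex III core subunit Uqcrc2 -0.38. The complex I median of that array (10.09) was the highest of the 12 and its complex II median (9.87) the lowest. Uqcrb was the most variable member, with a residual SD of 0.74 within genotypes. It read 16.16, 16.11 and 17.06 on the wild type arrays, 16.73, 17.15 and 17.44 with LAO1 deleted, 16.18, 18.04 and 16.69 with IL4i1 deleted, and 16.4, 15.57 and 17.41 with both deleted. These groups overlap throughout. Atp5h (residual SD 0.73), Cox4i1 (0.69), Ndufa4 (0.67) and Atp5g2 (0.66) followed, and 15 members had a residual SD over 0.5. The steadiest were Ndufb4, a complex I accessory subunit, and Ndufa4l2, the hypoxia-inducible relative of Ndufa4 (both 0.12), the latter a dim probe. Over the members the median residual SD was 0.32, the same as over all probes (0.32).

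**Figure D2:**
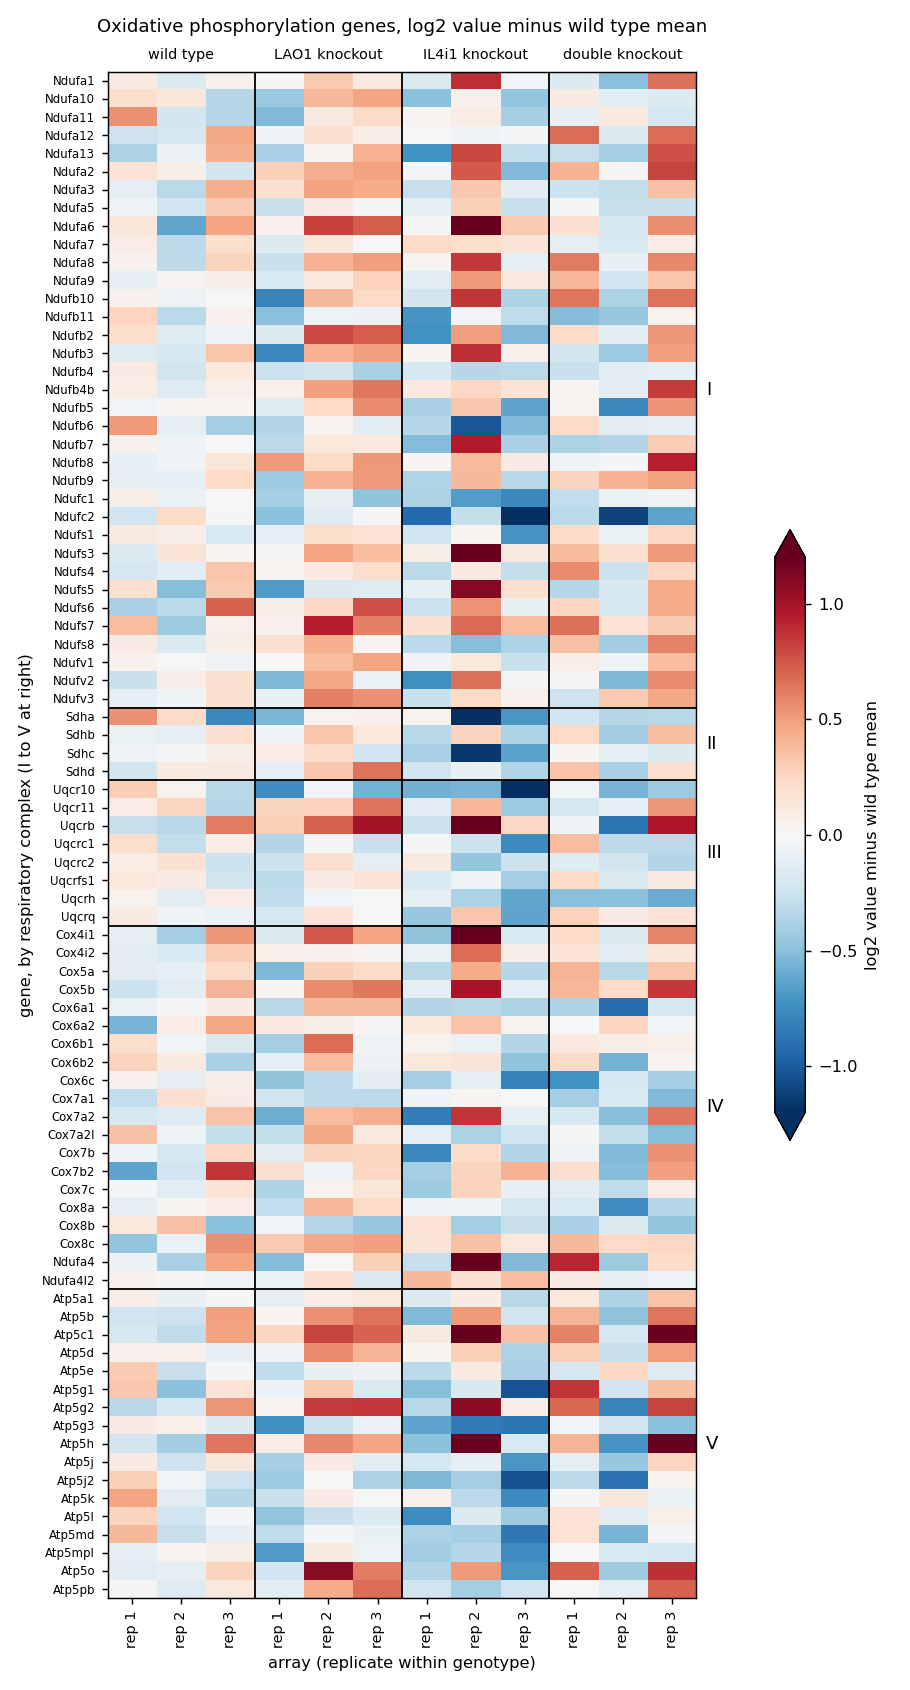
Each row is 1 of the 84 genes, grouped by complex, and each column 1 array; colour gives the log2 value minus the wild type mean of that gene, limited to -1.2 and 1.2. Columns that are mostly red (LAO1 knockout replicate 2, IL4i1 knockout replicate 2, double knockout replicate 3) run across complexes. So do columns that are mostly blue (LAO1 knockout replicate 1, IL4i1 knockout replicates 1 and 3, double knockout replicate 2). IL4i1 knockout replicate 3 gave the lowest value of the 12 arrays for 23 members, the most of any array. Sdha, Sdhc, Ndufb6 and Uqcrc2 are blue on IL4i1 knockout replicate 2.

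The effect of losing IL4i1 alone was examined by comparing the IL4i1 knockout with wild type. None of the 84 members passed the adjusted threshold in this comparison, which 0.0135% of all probes did. At an unadjusted p under 0.05, 9 members (10.7%) stood lower in the IL4i1 knockout and 0 higher. Over all probes 7.58% reached that p, 4.34% on the lower side and 3.25% on the higher. Among the 13321 probes above the 40th percentile of mean signal, where all but 5 members lie, the lower share was 6.65%. The groups did not overlap for 11 members that were lower (13.1%, all probes 5.16%, brighter probes 6.84%) and 2 that were higher, Ndufb4b and the dim Ndufa4l2 (2.38%, all probes 5.97%). The median log2 difference over the members was -0.09, with 56 of 84 below 0, against 0.03 over all probes and -0.04 over the brighter ones. After quantile normalization the members' median was 0.03, so its sign turned. On the values as deposited, the median was -0.43 in complex II (4 of 4 genes below 0), -0.29 in complex V (14 of 17), -0.23 in complex III (7 of 8), -0.05 in complex IV (12 of 20) and -0.03 in complex I (19 of 35).

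Complex II held the member with the smallest p of a test over the 4 genotypes. Sdhc encodes a membrane anchor that binds ubiquinone. It read 10.77, 10.82 and 10.9 on the wild type arrays, 10.92, 11.05 and 10.59 with LAO1 deleted, 10.44, 9.67 and 10.19 with IL4i1 deleted, and 10.85, 10.71 and 10.67 with both deleted. All 3 IL4i1 knockout arrays lay below all 9 others. Against wild type the IL4i1 knockout differed by -0.73 (SE 0.22, 95% interval -1.2 to -0.26, 1.66-fold lower), with an unadjusted p of 0.00516 and an adjusted p of 0.52 by limma. Without IL4i1 knockout replicate 2 the difference was -0.52. Sdha read 11.41, 11.09 and 10.09 in wild type and 10.9, 9.61 and 10.16 in the IL4i1 knockout, so that the groups overlapped (difference -0.64, 95% interval -1.41 to 0.13, and -0.33 without IL4i1 knockout replicate 2). The iron-sulfur subunit Sdhb differed by -0.15 (interval -0.69 to 0.39, and -0.36 without that array) and the other anchor, Sdhd, by -0.23 (interval -0.76 to 0.3).

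In complex V, 4 genes reached an unadjusted p under 0.05, Atp5g3, Atp5j2, Atp5md and Atp5mpl, all lower in the IL4i1 knockout. Atp5g3 is 1 of 3 genes that encode the same mature c subunit of the rotating ring. It read 14.69, 14.65 and 14.43 on the wild type arrays, 13.85, 14.33 and 14.52 with LAO1 deleted, 13.96, 13.74 and 13.72 with IL4i1 deleted, and 14.56, 14.36 and 14.1 with both deleted. The IL4i1 knockout lay below wild type and below the double knockout without overlap, and overlapped the LAO1 knockout through its replicate 1. The difference from wild type was -0.78 (SE 0.21, 95% interval -1.25 to -0.32; unadjusted p 0.00289, adjusted p 0.52 by limma), and -0.75 without IL4i1 knockout replicate 2. Of the other c subunit genes, Atp5g1 differed by -0.58 (interval -1.26 to 0.1) and Atp5g2 by 0.27 (-0.13 without IL4i1 knockout replicate 2), with SDs of 0.46 in wild type and 0.72 in the IL4i1 knockout. Atp5j2, subunit f, differed by -0.67, Atp5md by -0.55 and Atp5mpl by -0.5, each with an unadjusted p between 0.0278 and 0.0446 and with no overlap between the groups (adjusted p 0.611 to 0.649 by limma). Atp5pb, subunit b of the stator stalk, also had separate groups, with 11.08, 10.92 and 11.2 in wild type and 10.83, 10.66 and 10.83 in the IL4i1 knockout (difference -0.29, interval -0.85 to 0.26). Of the catalytic head, the beta subunit Atp5b differed by -0.09 (interval -0.83 to 0.66) and the alpha subunit Atp5a1 by -0.13 (interval -0.59 to 0.33). Without IL4i1 knockout replicate 2 these were -0.39 and -0.25. Atp5c1, the gamma subunit of the central stalk, was the highest of the complex at 0.58 (interval -0.22 to 1.38), and stood at 0.23 without that array.

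In complex I, 3 genes reached an unadjusted p under 0.05, the accessory subunits Ndufc2, Ndufc1 and Ndufb6, all lower in the IL4i1 knockout. Ndufc2 read 12.07, 12.53 and 12.29 on the wild type arrays, 11.81, 12.15 and 12.28 with LAO1 deleted, 11.37, 12.01 and 10.65 with IL4i1 deleted, and 11.98, 11.19 and 11.67 with both deleted. All IL4i1 knockout and double knockout arrays lay below all wild type arrays. Its difference of -0.95 from wild type in the IL4i1 knockout (1.94-fold lower, SE 0.31, 95% interval -1.63 to -0.27; adjusted p 0.535 by limma) was the largest of any member, and was -1.29 without replicate 2 and -0.61 without replicate 3. Ndufc1 read 11.01, 10.86 and 10.94 on the wild type arrays, 10.54, 10.85 and 10.46 with LAO1 deleted, 10.56, 10.27 and 10.17 with IL4i1 deleted, and 10.64, 10.86 and 10.9 with both deleted. The wild type arrays lay above every array of both single knockouts, and the double knockout overlapped wild type. The difference for the IL4i1 knockout was -0.6 (interval -1.01 to -0.19; adjusted p 0.533 by limma) and for the LAO1 knockout -0.32 (interval -0.73 to 0.09). Ndufb6 differed by -0.63 in the IL4i1 knockout, with overlapping groups. Among the subunits that carry redox centres, Ndufv1, which binds the flavin, differed by -0.06 (interval -0.5 to 0.37) and the iron-sulfur subunits Ndufs1, Ndufs7 and Ndufs8 by -0.31, 0.41 and -0.4. Without IL4i1 knockout replicate 2 these were -0.16, -0.48, 0.27 and -0.35. Ndufs8 read 8.79, 8.52 and 8.77 in wild type and 8.38, 8.18 and 8.31 in the IL4i1 knockout, without overlap.

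In complex III, 1 gene reached an unadjusted p under 0.05. Uqcr10, a small complex III subunit, read 11.61, 11.35 and 10.98 in wild type and 10.73, 10.75 and 10.08 in the IL4i1 knockout (difference -0.79, SE 0.27, 95% interval -1.37 to -0.22; adjusted p 0.549 by limma). Uqcrfs1, the Rieske iron-sulfur protein, differed by -0.22 and the core subunit Uqcrc1 by -0.35. No complex IV gene reached an unadjusted p under 0.05 in this comparison. Its lowest value was that of Cox6c, a small structural subunit, at -0.45 (interval -0.93 to 0.03), and its highest that of Cox4i1 at 0.33 (interval -0.68 to 1.34). Cox4i1 read 11.75, 13.88 and 12.05 in the IL4i1 knockout and differed by -0.33 without replicate 2, so its sign rests on that array. The interval of the difference lay within 1 log2 unit of 0 for 63 of the 84 members.

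**Figure D3:**
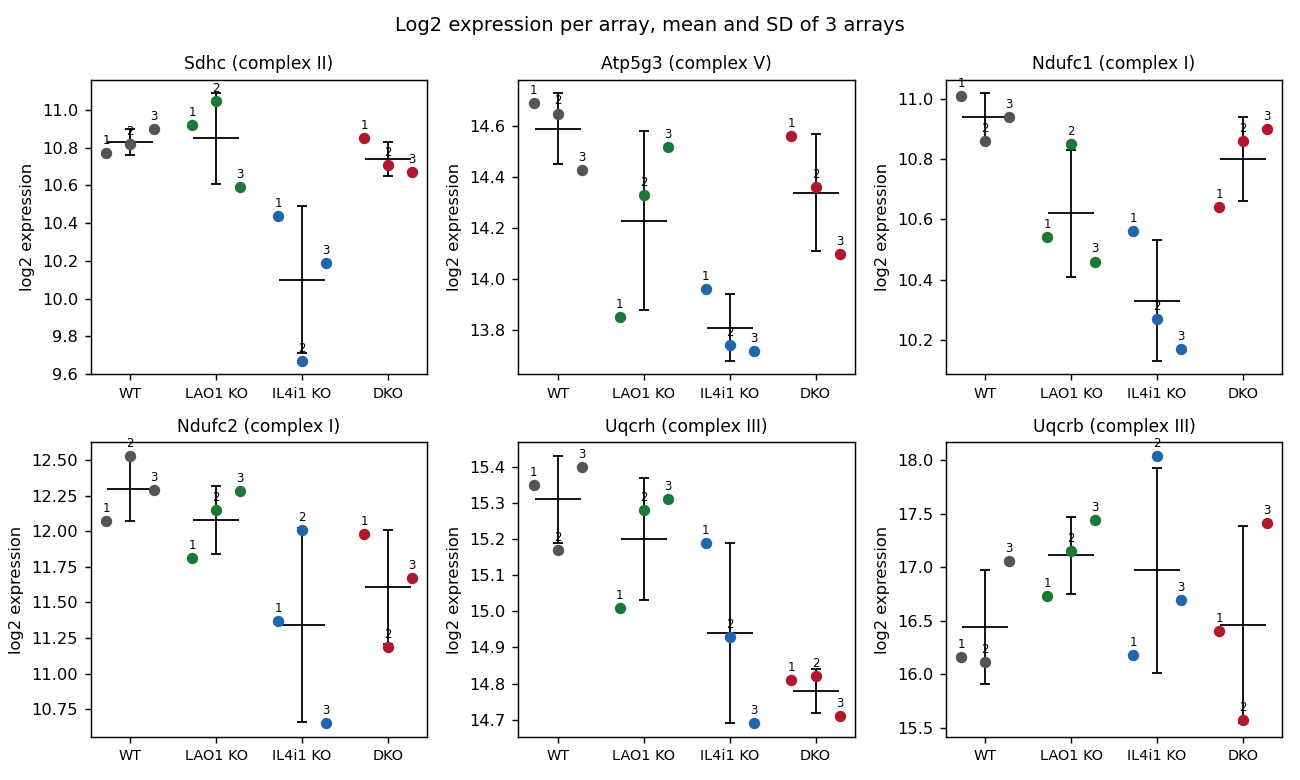
Log2 expression of 6 members on each array (points, numbered by replicate), with the mean and SD of 3 arrays per genotype; each panel has its own axis, which does not start at 0. Sdhc and Atp5g3 have their lowest means in the IL4i1 knockout. Uqcrh has its lowest mean in the double knockout, whose arrays overlap those of the IL4i1 knockout. The Uqcrb arrays of every genotype overlap.

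The counts of this comparison moved with single arrays. The 9 members at an unadjusted p under 0.05 became 4 without wild type replicate 1 (2.55% of all probes on the lower side in the same fit) or without IL4i1 knockout replicate 3 (4.23%), and 12 without IL4i1 knockout replicate 2 (2.77%). Without that last array the members' median was -0.3, with 71 of 84 below 0. It was -0.03 without IL4i1 knockout replicate 3. The complex II median stayed between -0.56 and -0.34 and the complex V median between -0.39 and -0.13 when any 1 array was left out.

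Other mitochondrial genes gave a mixed picture in the same comparison, and none of the listed genes passed the adjusted threshold. Of 18 genes of the tricarboxylic acid cycle and pyruvate dehydrogenase, 4 stood above wild type and the median was -0.19, with citrate synthase (Cs) at -0.54 (unadjusted p 0.0376). Cyc1, the cytochrome c1 of complex III, which the symbol rule leaves out, differed by -0.64. Etfdh, which feeds electrons from fatty acid oxidation to ubiquinone, differed by -0.61. They were the 2 lower genes at an unadjusted p under 0.05 among 19 electron and ATP carriers, with 0 higher. Of the 19, 10 stood above wild type (median 0.04). Of 76 mitochondrial ribosome genes, 52 stood above wild type (median 0.15). Of 23 regulators of mitochondrial gene expression, 11 stood above wild type (median -0.02). At an unadjusted p under 0.05, 3 of them were lower and 2 higher. Tfb2m, a mitochondrial transcription factor, differed by -0.8 (unadjusted p 0.00778, adjusted p 0.533 by limma) and Yy1 by -0.75. Nrf1 (-0.19), Gabpa (0.11) and Tfam (0.03) had unadjusted p-values of 0.534 to 0.918. All 10 smooth muscle markers stood higher in the IL4i1 knockout (median 0.34), 5 of 11 absorptive colonocyte markers did (median -0.01), and 5 of 6 macrophage and monocyte markers stood lower (median -0.87). All 4 fibroblast (median -0.77), all 4 endothelial (-0.34) and all 7 goblet cell markers (-0.22) also had lower means. Muc2 (-0.01) and Clca1 (-0.09) had wild type means of 19.93, the array maximum. The goblet list averaged 17.43, 16.64 and 17.54 with IL4i1 deleted, beside 17.33, 17.49 and 17.53 for wild type. Endothelial averages were 6.88, 5.71 and 7.07, beside 7.24, 6.93 and 6.6. For these and the fibroblast list, only IL4i1 knockout replicate 2 fell below the wild type range. Smooth muscle averaged 14.54 there, 13.37 and 14.12 on the other IL4i1 knockout arrays, beside 13.37 to 13.93 for wild type. The part of these cell types in the members' values was not tested. In bulk tissue, fewer cells of a type cannot be told apart from less RNA per cell.

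The combined loss of both oxidases was examined by comparing the double knockout with wild type. None of the 84 members passed the adjusted threshold, which 0.0225% of all probes did. At an unadjusted p under 0.05, 2 members stood lower (2.38%, all probes 7.44% in both directions), Uqcrh and Ndufc2. Uqcrh, the acidic hinge protein of complex III, read 15.35, 15.17 and 15.4 on the wild type arrays, 15.01, 15.28 and 15.31 with LAO1 deleted, 15.19, 14.93 and 14.69 with IL4i1 deleted, and 14.81, 14.82 and 14.71 with both deleted. The double knockout arrays were close together and overlapped those of the IL4i1 knockout. They lay below all wild type and LAO1 knockout arrays. They differed from wild type by -0.53 (SE 0.19, 95% interval -0.94 to -0.12; unadjusted p 0.0155, adjusted p 0.577 by limma), and by -0.55 without double knockout replicate 2. Ndufc2 differed by -0.68 (unadjusted p 0.0486, adjusted p 0.669), and by -0.47 without that replicate. Processed copies of Uqcrh, Cox5b, Atp5k and Atp5l exist in the mouse genome, and Ndufb4 has the near-identical copy Ndufb4b, so their probes may read more than 1 gene.

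Without overlap between the groups, 5 members were lower with both genes deleted than in wild type (5.95%, the same as the 5.95% of all probes) and 2 higher (2.38%, all probes 5.68%). Besides Uqcrh and Ndufc2, the lower ones were the complex IV subunits Cox6a1, Cox6c and Cox8a. Cox6a1 read 14.47, 14.53 and 14.65 on the wild type arrays, 14.22, 14.94 and 14.94 with LAO1 deleted, 14.2, 14.22 and 14.17 with IL4i1 deleted, and 14.18, 13.64 and 14.34 with both deleted. Wild type and the LAO1 knockout overlapped, and the IL4i1 and double knockouts lay below wild type. The difference of the double knockout from wild type was -0.5 (interval -1.01 to 0.02), and -0.29 without replicate 2. That of Cox8a was -0.42, and -0.26 without replicate 2, while that of Cox6c was -0.45, and -0.57 without it. The higher ones were Ndufb9 (0.39, interval -0.21 to 0.98) and Ndufs3, a core complex I subunit (0.36, interval -0.25 to 0.96). The median over the members was 0.03 (all probes 0), with 47 of 84 above 0. By complex it was 0.13 in complex I, -0.02 in II, -0.03 in III, -0.01 in IV and 0.04 in V. Without replicate 2, the array with the acinar signal, the members' median was 0.2, with 57 of 84 above 0 and 3 members on each side at an unadjusted p under 0.05 (all probes 5.11% higher and 4.87% lower). The count of 2 lower members became 1 without wild type replicate 2 (all probes 2.55%), and without wild type replicate 3 there were 2 members on each side (all probes 4% higher and 4.64% lower).

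Beside these values, 64 of 76 mitochondrial ribosome genes stood above wild type in the double knockout (median 0.26), 12 of them at an unadjusted p under 0.05 (all probes 3.63% on the higher side, brighter probes 4.33%) and none past the adjusted threshold. Mrpl34 had the smallest p (difference 0.76, adjusted p 0.421 by limma). By array the ribosome list averaged 7.46, 7.01 and 7.34 in the double knockout and 7, 6.93 and 7.03 in wild type. Replicate 2 thus lay within the wild type range. In the LAO1 knockout 68 of the 76 genes stood above wild type (median 0.21). The median difference between the double and LAO1 knockouts was 0.1. Of 18 mitochondrial import and cristae genes, 15 stood above wild type (median 0.26). By array their means were 10.42, 9.72 and 9.96 in the double knockout and 9.86, 9.74 and 9.65 in wild type, so replicate 2 lay within the wild type range. Hif1a, the oxygen-sensing transcription factor, differed by 1 (unadjusted p 0.0229, adjusted p 0.601), Yy1 by -0.72 and Slc16a1, which carries butyrate and lactate into cells, by -0.72 (unadjusted p 0.00756, adjusted p 0.504). Ndufa4l2, a known target of HIF-1, was dim in both groups and differed by -0.01 (interval -0.39 to 0.37). The median difference of the 11 absorptive colonocyte markers was -0.67 and that of the 10 smooth muscle markers -0.54. It was -0.66 for the 7 goblet cell, -0.46 for the 4 fibroblast and -0.4 for the 4 endothelial markers. By array the fibroblast list averaged 11.37, 12 and 9.93, beside 10.96 to 11.9 for wild type. Endothelial averages were 6.71, 6.96 and 5.92, beside 6.6 to 7.24. In both lists only replicate 3 fell below the wild type range. Above wild type stood 3 of 5 T cell (median 0.57), 4 of 6 neutrophil (0.27) and 4 of 6 macrophage and monocyte markers (0.18). The part of these cell types was not tested.

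**Figure D4:**
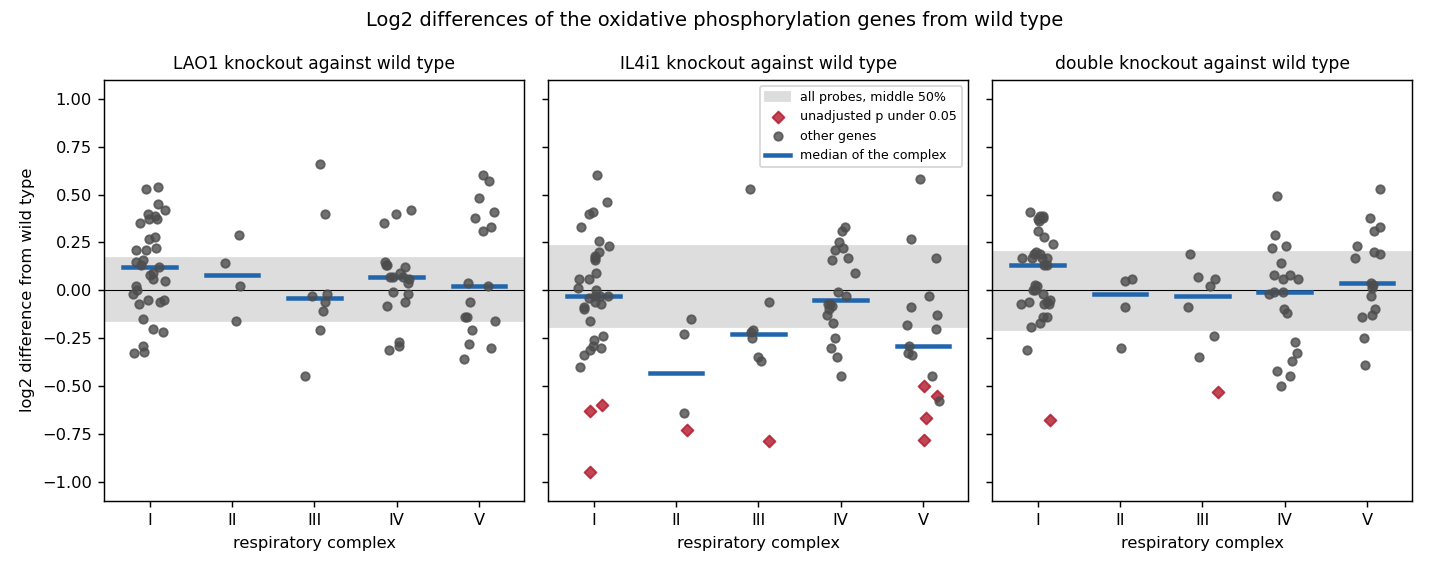
Log2 difference of each of the 84 genes from wild type, by respiratory complex, in the LAO1, IL4i1 and double knockout; blue bars are the medians of the complexes, red diamonds members with an unadjusted p under 0.05 and the grey band the middle 50% of all probes. The diamonds are 0 in the LAO1 knockout, 9 in the IL4i1 knockout and 2 in the double knockout, all below 0.

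The effect of losing LAO1 alone was examined by comparing the LAO1 knockout with wild type. None of the 84 members passed the adjusted threshold (all probes 0.0045%), and 0 reached an unadjusted p under 0.05 (all probes 3.02%). The groups did not overlap for 3 members that were higher (3.57%, all probes 4.67%) and 2 that were lower (2.38%, all probes 3.86%). The higher ones were the complex I subunits Ndufa2 and Ndufb8 and the complex III subunit Uqcr11, and the lower ones Cox6c and Ndufc1. Ndufa2 read 9.3, 9.21 and 8.92 in wild type and 9.43, 9.58 and 9.62 in the LAO1 knockout. The members' median was 0.07 (all probes 0.01), with 50 of 84 above 0, and 0.2 with 65 above 0 without LAO1 knockout replicate 1, the array that was lowest for most members. In place of 0, 3 members reached an unadjusted p under 0.05 on the higher side without that array (all probes 1.43%) or without wild type replicate 3 (2.27%). The largest differences were those of Uqcrb (0.66, interval -0.41 to 1.73) and Atp5c1 (0.6, interval -0.2 to 1.4). The interval lay within 1 log2 unit of 0 for 68 of the 84 members, as it did in the double knockout comparison (68).

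Whether the second deletion changed the first was examined by setting the double knockout against each single knockout. Against the IL4i1 knockout, none of the 84 members passed the adjusted threshold (all probes 0.477%). At an unadjusted p under 0.05, 7 members stood higher in the double knockout (8.33%) and 0 lower, while over all probes 9.83% reached it, 5.17% higher and 4.66% lower. Among the brighter probes the higher share was 7.57%. The 7 were Atp5g1, Atp5g3 and Atp5l of complex V, Ndufb6, Ndufc1 and Ndufs8 of complex I, and Sdhc. Atp5g1 had the largest difference at 0.91 (SE 0.31, 95% interval 0.23 to 1.59; adjusted p 0.319 by limma). It read 12.24, 11.15 and 11.74 in the double knockout and 10.87, 11.19 and 10.34 in the IL4i1 knockout, where replicate 2 of each overlapped. Sdhc differed by 0.64 (interval 0.17 to 1.11; adjusted p 0.307) and Atp5g3 by 0.53 (interval 0.07 to 1; adjusted p 0.435). This comparison shares its IL4i1 knockout arrays with that against wild type, so low values there enter both. Without overlap, 8 members were higher (9.52%, all probes 6.05%) and 3 lower (3.57%, all probes 6.62%). The latter were Cox7a1, the muscle-type isoform of a complex IV subunit, Ndufa7 and the dim Ndufa4l2. The members' median was 0.13 (all probes -0.02), with 57 of 84 above 0, and it was highest in complex II (0.31) and complex V (0.28, 15 of 17 above 0). The count of 7 became 2 without double knockout replicate 1 (all probes 3.91% on the higher side) or IL4i1 knockout replicate 3 (4.45%), 4 without double knockout replicate 3 (5.59%), and 11 without double knockout replicate 2 (5.7%).

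Against the LAO1 knockout, none of the 84 members passed the adjusted threshold (all probes 0.14%), and 3 stood lower in the double knockout at an unadjusted p under 0.05 (3.57%, all probes 7.15%). These were Cox6a1 (-0.65, interval -1.16 to -0.13; adjusted p 0.587 by limma), Cox8a (-0.54, interval -1.02 to -0.06) and Uqcrh (-0.42, interval -0.83 to -0.01). Without double knockout replicate 2 the differences were -0.44, -0.37 and -0.44. The groups did not overlap for Atp5l on the higher side (1.19%, all probes 6.25%) and for Uqcrh on the lower (1.19%, all probes 6.46%). The members' median was -0.07 (all probes -0.01). The 3 members became 0 without LAO1 knockout replicate 2 (all probes 2.63% on the lower side), LAO1 knockout replicate 3 (3.16%) or double knockout replicate 2 (4.32%). The median was -0.19 without LAO1 knockout replicate 1 and 0.09 without double knockout replicate 2.

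The single knockouts were also set against each other. None of the 84 members passed the adjusted threshold (all probes 0.0045%), and 5 reached an unadjusted p under 0.05 (5.95%, all probes 5.84%). Sdhc, Ndufc2, Atp5pb and Ndufs8 stood higher in the LAO1 knockout, by 0.75, 0.74, 0.62 and 0.61, and Ndufs5 lower by a difference of -0.73. All 4 members of complex II, 8 of complex III and 17 of complex V had higher means in the LAO1 knockout, as did 22 of 35 of complex I and 14 of 20 of complex IV. The members' median was 0.2 (all probes -0.01, brighter probes 0.04), with 65 of 84 above 0. The 4 members on the higher side (all probes 3.24%) became 14 without LAO1 knockout replicate 1 (2.56%), 12 without IL4i1 knockout replicate 2 (2.49%), 1 without LAO1 knockout replicate 2 (2.66%), and 2 without LAO1 knockout replicate 3 (2.48%) or IL4i1 knockout replicate 3 (3.07%).

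The interaction, which asks whether the double knockout departed from the sum of the single knockout differences, passed the adjusted threshold for none of the 84 members (all probes 0.23%) and reached an unadjusted p under 0.05 for 4 (4.76%, all probes 7.12%). The 4 were Uqcr10 (0.9), Atp5g3 (0.89), Ndufc1 (0.79) and Atp5l (0.78). All 4 had lower means than wild type in both single knockouts. For Atp5l the LAO1 knockout differed by -0.3, the IL4i1 knockout by -0.45 and the double knockout by 0.03. For Atp5g3 the 95% interval was 0.23 to 1.55 and the adjusted p 0.501 by limma. The count of 4 became 2 without wild type replicate 1 (all probes 2.84% on the higher side) or LAO1 knockout replicate 1 (3.72%), and 8 without double knockout replicate 2 (4.1%). A test of any difference among the 4 genotypes (moderated F) passed the adjusted threshold for none of the 84 members (all probes 0.207%) and reached an unadjusted p under 0.05 for 4 (4.76%, all probes 7.48%), Sdhc, Atp5g3, Ndufc2 and Ndufc1. The adjusted p of Sdhc, the smallest, was 0.504.

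Some subunits have tissue-restricted isoforms. Cox4i2, Cox6b2, Cox7b2, Cox8b and Ndufa4l2 had means below the 40th percentile of all probes (4.67), where a value carries little information on level. Cox7a1, the heart and muscle partner of Cox7a2, was above it and read 6.72, 7.22 and 7.12 on the wild type arrays, 6.78, 6.71 and 6.71 with LAO1 deleted, 6.97, 7.05 and 7.02 with IL4i1 deleted, and 6.61, 6.84 and 6.49 with both deleted. The IL4i1 knockout values lay above all those of the LAO1 and double knockouts. Cox7a1 differed by -0.37 between the double knockout and wild type (interval -0.78 to 0.03), where the groups overlapped, and Cox7a2 had differences of -0.03 to 0.07 from wild type in the 3 knockouts, with intervals that together spanned -0.93 to 0.98. Without the array that stood apart in each knockout, Cox7a2 differed by 0.4 (LAO1 replicate 1 left out), -0.47 (IL4i1 replicate 2) and 0.22 (double knockout replicate 2). For Cox7a2l, which joins complexes III and IV in supercomplexes, the double knockout differed by -0.27.

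Over the 84 members, the largest range within a genotype exceeded the largest difference between genotype means for 80 (95.2%, all probes 93.6%). The exceptions were Atp5g3, Ndufc1, Uqcr10 and Uqcrh. For Atp5g3 the largest range within a genotype was 0.67 and the largest difference between means 0.78, and for Uqcrh they were 0.5 and 0.53.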

How the data were processed

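Colon RNA (6 µg) of 12 samples was measured on Affymetrix arrays. The authors deposited log2 expression values with 2 decimals for 22206 probes, made with the Transcriptome Analysis Console per the submitters' processing notes; summarisation and normalization settings are not given in the sources used here. Probes with a gene symbol numbered 19572. The probe with the highest mean stood for each gene. One linear model over 12 arrays (limma 3.58.1, R 4.3.3; lmFit and eBayes, 8 residual degrees of freedom) gave all pairwise comparisons, the interaction and a moderated F, with Benjamini-Hochberg adjustment over all probes and a threshold of 0.05. Named members were those with the 3 smallest p-values of a complex, the extremes of each complex, catalytic subunits and isoforms. The members and lists were chosen with earlier results of these data known. Alternatives covered the variance trend, robust fitting, the arrays fitted, quantile normalization, median centring, dim probes, averaging of probes, replicate numbers and leaving out each array. The analysis was tested on simulated data.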

Additional observations from a re-analysis of the deposited data

How the results depend on the processing

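No member passed the adjusted threshold in any comparison under any alternative run, and the smallest adjusted p of a member was 0.106, for the double knockout against the IL4i1 knockout without double knockout replicate 2. The members' median difference from wild type ranged, over the arrays left out in turn, from -0.05 to 0.2 in the double knockout, -0.01 to 0.2 in the LAO1 knockout and -0.3 to -0.03 in the IL4i1 knockout, and from -0.12 to 0.03 in the IL4i1 knockout over the other settings, where quantile normalization gave 0.03 and turned its sign. Against the LAO1 knockout the double knockout's median ranged from -0.19 to 0.09, and against the IL4i1 knockout from 0.03 to 0.35. The main fit did not pair samples by replicate number. Deviations of same-numbered samples correlated at -0.14 to 0.22, with 7 of 18 pairs over 0.1. Those of different-numbered samples correlated at -0.32 to 0.29, with 9 of 36 pairs over 0.1. These ranges overlap and do not settle whether the numbers pair the samples. With the replicate number as a block, 0 members passed in any comparison, the median of the double knockout against wild type was 0.03 and its smallest adjusted p was 0.521. With 3 arrays per genotype, the median half-width of a member's 95% interval was 0.55, which limits the precision of most single members.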
